A study of Mus musculus with 5 samples.

Results

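The 28 genes described here encode the enzymes that make cholesterol, the proteins that sense it, and proteins that carry, export or take up lipid. They were taken by a fixed list of gene symbols from 25413 genes in RNA-seq of neural stem cells (NSCs) and STO cells of the mouse. The rule itself uses no measured value, but the list was chosen with earlier results of these data known. Expression was given as FPKM, the mapped fragments divided by the length of the transcript and the size of the library, so that levels of different genes can be compared per length. The transcripts of each symbol were summed in each sample.

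The study examined the three-dimensional genome of female germline stem cells beside that of other cell types, and the RNA-seq described here covered NSCs in 2 samples and STO cells in 3 samples. The NSCs were primary cells of the cortex of mouse embryos, at passages 5 to 8, grown as a monolayer on poly-l-ornithine and laminin in neural basal medium with EGF, bFGF and heparin, the growth factors at 20 ng/ml, and 2% B27. STO cells are an established line of SIM mouse embryonic fibroblasts, resistant to thioguanine and ouabain, used beyond passage 30 and grown in high-glucose DMEM with 10% fetal bovine serum. The labels give the strain of both as C57BL/6, and neither carried a named transgene, deletion or treatment. Cell type, passage number, medium and possibly genetic background changed together between the groups, so their parts cannot be told apart. Nothing states that the samples of a cell type came from separate cultures, so p-values measure the spread between these samples, which may be technical.

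Cells build cholesterol from acetyl-CoA by way of mevalonate, farnesyl diphosphate and squalene, and a long series of enzymes then trims the first sterol, lanosterol, into cholesterol. When the membrane of the endoplasmic reticulum is poor in sterol, SCAP escorts the transcription factors SREBP1 and SREBP2 to the Golgi, where they are cut and released to switch on the genes of synthesis, and INSIG proteins hold SCAP back when sterol is plentiful. Liver X receptors respond to oxidised sterols and switch on export genes such as Abca1 and Abcg1. The brain makes its own cholesterol, and apolipoprotein E, released above all by astrocytes, carries it between neural cells.

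Each library held 15223341 to 22271895 fragments, as implied by the confidence intervals of the deposited values. All 7 neural stem cell markers examined had a mean of at least 1 FPKM in NSCs, with a summed level of 3825 to 4041 FPKM, and 5 of the 7 were listed at 0 in every STO sample. Fibroblast markers summed to 1352 to 1462 FPKM in STO cells, where 6 of 7 had a mean of at least 1 FPKM, and to 5.05 to 5.12 FPKM in NSCs. Markers of other neural cells were also present in the NSC libraries. All 5 astrocyte markers had a mean of at least 1 FPKM there, and their sum was 81.3 to 81.5 FPKM in NSCs against 24.9 to 29.3 FPKM in STO cells, where Gja1 made up nearly all of it. The 4 oligodendrocyte markers summed to 120 to 122 FPKM in NSCs and to 0.961 to 1.14 FPKM in STO cells. Neuron markers summed to 17.5 to 19.1 FPKM in NSCs and to 7.84 to 8.61 FPKM in STO cells, where Tubb3 made up nearly all of it. Tubb3 had means of 8.69 FPKM in NSCs and 8.30 FPKM in STO cells, with overlapping samples. Dcx, Rbfox3, Syt1 and Snap25 were at or near 0 in STO cells. The 5 microglial markers summed to 2.18 to 3.10 FPKM in NSCs, nearly all of it Cd68, with Aif1 and Cx3cr1 listed at 0, and to 1.09 to 1.26 FPKM in STO cells. The part of these cell types in the results was not tested, and in bulk samples fewer cells of a type and less RNA per cell cannot be told apart.

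Most of the cholesterol genes were lower in STO cells than in NSCs. Differences were taken as STO minus NSC on the scale of log2(FPKM + 1), on which genes near 0 FPKM show less than their true fold, and were tested with limma across the 12291 genes with a mean of at least 1 FPKM in either cell type. Of the 28 genes, 27 passed this minimum, all of them in both cell types, and Abcg1 did not. At an adjusted p under 0.05, 20 of the 27 were lower in STO cells and 5 were higher, which is 74.1% and 18.5% of them. Among all tested genes 43.7% were lower and 41.9% were higher, so that most genes differed between these cell types. All tested genes include those that reached the minimum in only 1 cell type, so in this they are unlike the members. Shares among genes at the minimum in both cell types were not computed. With a difference of at least 1 on the log2 scale also required, 12 members were lower (44.4%, against 21.3% of all tested genes) and 4 were higher (14.8%, against 17.1%). The median difference of the 27 members was -0.94, and that of all tested genes was -0.023. In the same 20 genes every STO sample lay below both NSC samples, and in the same 5 every STO sample lay above them, a pattern shown by 46% and 44% of all tested genes.

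**Figure D1:**
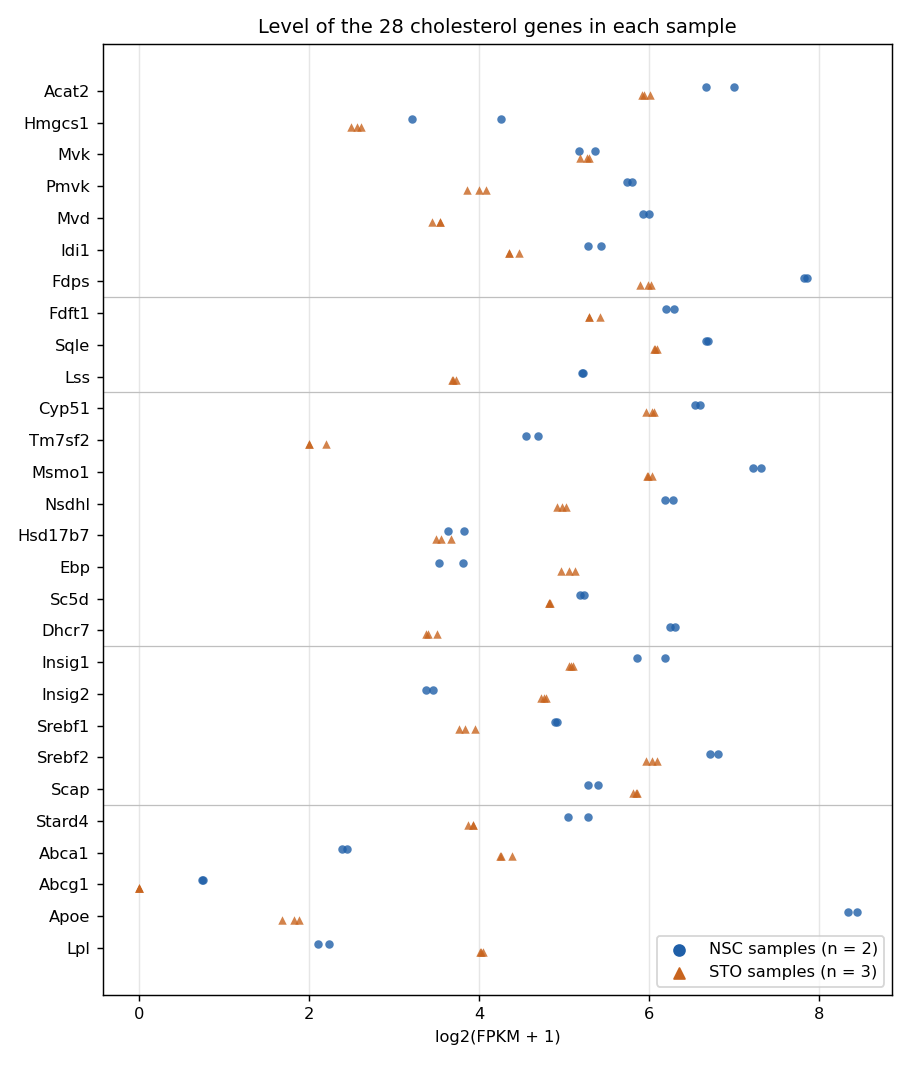
Level of each of the 28 genes as log2(FPKM + 1), with blue points for the 2 NSC samples and orange triangles for the 3 STO samples, and grey lines between the roles (mevalonate arm, squalene and ring closure, sterol tailoring, sensing, and carriage, efflux and lipase). Apoe shows the widest gap of the 28, with means of 334 and 2.49 FPKM, and the samples of the 2 cell types overlap for Mvk and Hsd17b7.

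The 18 enzymes of synthesis were expressed in both cell types and at a lower level in STO cells. Their summed FPKM was 1247 and 1236 in the NSC samples and 570, 559 and 576 in the STO samples, which is 2.18-fold higher in NSCs. The FPKM of all transcripts together was also higher in NSCs, at 442905 and 446393 against 396613, 385485 and 399970. The sums and ratios given here were not rescaled for that. Of the 18, 15 were lower in STO cells, 1 was higher and 2 did not pass the test, with a median difference of -1.07. All 18 lay above the median level of the tested genes in NSCs (11.0 FPKM), and 13 of 18 did so in STO cells (median 11.5 FPKM). By step, the sum of the 7 genes of the mevalonate arm was 547 ± 15.5 (SD, n = 2) in NSCs and 210 ± 5.67 (SD, n = 3) in STO cells. The 3 genes from squalene to the closed ring summed to 213 ± 1.89 and 118 ± 2.38 FPKM, and the 8 genes of sterol tailoring to 482 ± 9.49 and 241 ± 4.86 FPKM. The ratio of NSCs to STO cells was thus 2.61 for the first group, 1.80 for the second and 2.00 for the third.

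The mevalonate arm, which turns acetyl-CoA into farnesyl diphosphate, had 6 of 7 genes lower in STO cells and none higher. Fdps, which joins the isoprene units into farnesyl diphosphate, was the most abundant enzyme of the 18 in NSCs, at 230 and 225 FPKM, and stood at 63.8, 58.4 and 62.2 FPKM in the STO samples. Its STO samples lay far below both NSC samples, with a difference of -1.87 ± 0.059 (SE) and an adjusted p of 4.12e-07, and its share of the summed FPKM of the 18 enzymes was 18.3% ± 0.176 (SD, n = 2) in NSCs and 10.8% ± 0.379 (SD, n = 3) in STO cells. Mvd (chr8:124957496-124967322 in mm9), the decarboxylase that makes isopentenyl diphosphate, was at 63.0 and 59.7 FPKM in NSCs and at 10.6, 9.89 and 10.7 FPKM in STO cells. This 5.91-fold gap was the widest of the arm, with a difference of -2.45 ± 0.058 (SE) and an adjusted p of 1.04e-07. Pmvk, the phosphomevalonate kinase, was at 52.3 and 54.8 FPKM in NSCs and at 15.0, 13.5 and 15.9 FPKM in STO cells. The STO samples were again all lower, with a difference of -1.79 ± 0.076 (SE) and an adjusted p of 1.67e-06.

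Idi1, the isomerase of isopentenyl diphosphate, was at 42.2 and 37.7 FPKM in NSCs and at 19.5, 21.2 and 19.5 FPKM in STO cells. Its level in NSCs was thus 1.99-fold that in STO cells, with no overlap and a difference of -0.96 ± 0.071 (SE, adjusted p = 2.55e-05). Acat2, the cytosolic thiolase that joins acetyl-CoA units at the head of the pathway, was at 127 and 101 FPKM in NSCs and at 63.4, 60.5 and 59.3 FPKM in STO cells. The NSC samples differed from each other by more than the 3 STO samples did, and both lay above them (difference -0.88 ± 0.10, SE, adjusted p = 2.33e-04). Mvk, the mevalonate kinase, did not follow the others of the arm. It was at 35.1 and 40.0 FPKM in NSCs and at 38.3, 35.5 and 37.7 FPKM in STO cells, so the groups overlapped, and its difference of -0.015 ± 0.073 (SE) did not pass the test (adjusted p = 0.855). In both cell types most of Mvk came from the transcript NM_023556, at 76.9% and 81.6% of the gene in the NSC samples and 71.7% to 72.9% in the STO samples.

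Hmgcs1, the synthase that feeds the mevalonate step, was at 8.27 and 18.1 FPKM in NSCs and at 4.92, 5.14 and 4.65 FPKM in STO cells. All STO samples were lower (difference -1.17 ± 0.28, SE, adjusted p = 0.00749), but the NSC samples differed by more than for any other tested member, with an SD of 0.74 on the log2 scale against a median of 0.068 over the members. Without NSC replicate 2 the difference was -0.65, and without NSC replicate 1 it was -1.70. The files place the gene at 2 loci on chr13_random of mm9 that carry the same pair of transcripts, so reads shared between near-identical copies could be split between them, and the values of Hmgcs1 are uncertain.

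All 3 enzymes from farnesyl diphosphate to the closed ring were lower in STO cells. Lss, the cyclase that forms lanosterol, was at 36.2 and 36.4 FPKM in NSCs and at 11.9, 12.0 and 12.3 FPKM in STO cells. The samples of each group lay close together and the groups 3.02-fold apart, with a difference of -1.52 ± 0.048 (SE, adjusted p = 4.02e-07). Fdft1, the squalene synthase, was at 77.1 and 72.5 FPKM in NSCs and at 38.3, 38.3 and 42.0 FPKM in STO cells. Its level was lower in every STO sample (difference -0.90 ± 0.065, SE, adjusted p = 2.14e-05), and its locus shares 773 bases with Ctsb, which ran the other way at 55.3 and 56.5 FPKM in NSCs and 121 to 130 FPKM in STO cells. Sqle, the squalene epoxidase, was at 101 and 103 FPKM in NSCs and at 67.3, 65.6 and 66.3 FPKM in STO cells. It was lower in every STO sample (difference -0.61 ± 0.048, SE, adjusted p = 3.57e-05), and its share of the summed enzymes was higher in STO cells, at 11.7% ± 0.166 (SD, n = 3) against 8.19% ± 0.146 (SD, n = 2) in NSCs.

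Among the 8 enzymes that tailor lanosterol into cholesterol, 6 were lower in STO cells, 1 was higher and 1 did not pass the test. The widest gap was that of Dhcr7 (chr7:151009072-151034315 in mm9), the reductase that completes cholesterol and whose loss causes Smith-Lemli-Opitz syndrome. It was at 78.2 and 74.8 FPKM in NSCs and at 10.3, 9.60 and 9.42 FPKM in STO cells. The NSC level was 7.82-fold higher (difference -2.85 ± 0.059, SE, adjusted p = 5.89e-08), and its share of the summed enzymes was 6.16% in NSCs and 1.72% in STO cells. Tm7sf2 (chr19:6062821-6067850 in mm9), a sterol reductase that acts after the demethylation of lanosterol, was at 24.9 and 22.5 FPKM in NSCs and at 3.00, 3.01 and 3.60 FPKM in STO cells. All its STO samples lay far below the NSC samples (difference -2.56 ± 0.086, SE, adjusted p = 5.54e-07), a 7.41-fold ratio that rests on 93, 108 and 167 fragments in STO cells.

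Ebp (chrX:7762455-7770638 in mm9), the isomerase that shifts a double bond in the sterol ring, was the only enzyme of the 18 that was higher in STO cells. It was at 13.0 and 10.5 FPKM in NSCs and at 32.5, 30.3 and 33.9 FPKM in STO cells. Every STO sample lay above both NSC samples, 2.74-fold on average, with a difference of 1.39 ± 0.096 (SE, adjusted p = 1.86e-05). Its share of the summed enzymes was 0.947% ± 0.135 (SD, n = 2) in NSCs and 5.67% ± 0.232 (SD, n = 3) in STO cells. Sc5d, the desaturase that acts next, was at 35.4 and 36.6 FPKM in NSCs and at 27.5, 27.4 and 27.3 FPKM in STO cells. That fall of 0.38 ± 0.047 (SE, adjusted p = 3.34e-04) was the smallest among the 15 enzymes that were lower.

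Nsdhl and Hsd17b7 act with Msmo1 to remove methyl groups from the ring. Nsdhl was at 72.0 and 76.8 FPKM in NSCs and at 29.3, 30.5 and 31.6 FPKM in STO cells, with every STO sample lower (difference -1.26 ± 0.058, SE, adjusted p = 2.55e-06). Hsd17b7 was at 11.4 and 13.1 FPKM in NSCs and at 10.7, 11.7 and 10.3 FPKM in STO cells. These ranges overlapped, and the difference of -0.15 ± 0.083 (SE) did not pass the test (adjusted p = 0.123). Cyp51, the demethylase that starts the trimming of lanosterol, was at 92.0 and 95.6 FPKM in NSCs and at 61.4, 64.5 and 65.5 FPKM in STO cells, so its samples did not overlap and it stayed abundant in both (difference -0.55 ± 0.055, SE, adjusted p = 1.13e-04). Msmo1, the oxidase of this group, was at 148 and 158 FPKM in NSCs and at 61.7, 62.2 and 64.4 FPKM in STO cells. Its STO samples were all lower (difference -1.27 ± 0.056, SE, adjusted p = 2.02e-06), and its share of the summed enzymes was 12.3% in NSCs and 11.0% in STO cells on average.

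The promoters of the members were searched for the sterol regulatory element to which SREBPs bind. In the windows of 300 bases that RefSeq promoters of GRCm38.p6 span, read on both strands, the core TCACNCCA was found in 4 of 32 promoters of the 22 members listed there (12.5%), those of Apoe, Hmgcs1, Msmo1 and Srebf2, and in 4.36% of all 32851 promoters. The CCAAT box, bound by NF-Y, which acts beside SREBPs at many sterol genes, was found in 19 of the 32 (59.4%), against 37.4% of all. The E-box CACGTG was found in 7 of the 32 (21.9%), against 7.15% of all. These matches are descriptions of letters and not of binding. Only exact matches were sought, so elements that differ from these letters or lie outside the windows were not counted. Insig1, described below as an SREBP target, held no match to the core. The core was absent from most of the 22 members listed. Of the members that were higher in STO cells, Ebp, Insig2, Scap and Abca1 are listed there and none of these held it. Nor did Acat2, Pmvk, Mvd, Idi1, Lss, Cyp51, Tm7sf2, Nsdhl, Sc5d, Dhcr7, Srebf1 and Insig1, which were lower. A link between the core and the direction was not tested. Fdps, Fdft1, Sqle, Stard4, Abcg1 and Lpl were not among the promoters listed. Of the members that were lower and held the core, Apoe and Msmo1 had the largest falls, and the 250 bases upstream of the start of Msmo1 are shown for that reason (chr8:67212376-67212625 in mm9, minus strand, 5′ to 3′). Capitals mark the core, 177 bases before the start, and 3 CCAAT boxes at 160, 96 and 55 bases.
Msmo1: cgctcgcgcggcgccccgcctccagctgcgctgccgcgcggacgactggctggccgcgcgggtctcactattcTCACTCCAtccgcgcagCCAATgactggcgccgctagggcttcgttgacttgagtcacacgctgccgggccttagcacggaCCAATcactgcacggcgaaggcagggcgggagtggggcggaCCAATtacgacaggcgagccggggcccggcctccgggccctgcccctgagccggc

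**Figure D2:**
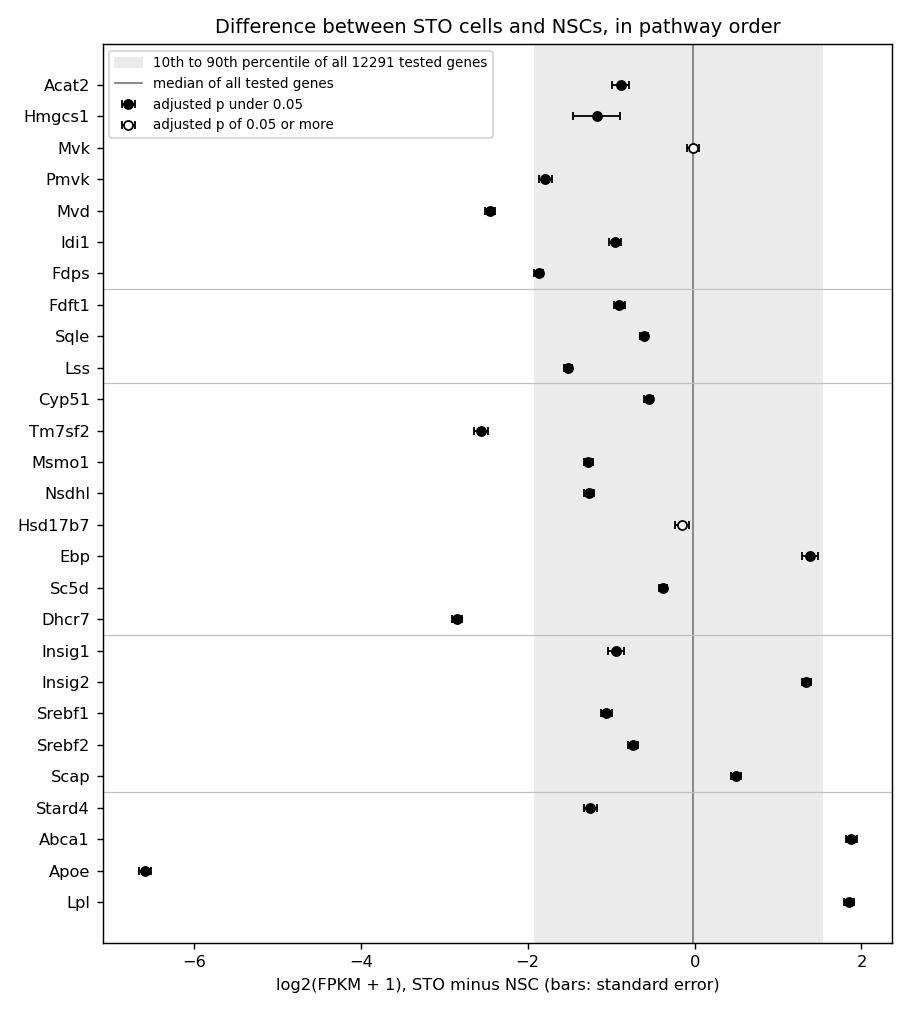
Difference between STO cells and NSCs on the log2(FPKM + 1) scale for the 27 tested members in pathway order, with standard errors; filled points passed the test, open points did not, and the grey band spans -1.91 to 1.53, the 10th to 90th percentile of all 12291 tested genes. Mvd, Tm7sf2, Dhcr7 and Apoe lie below the band, and Abca1 and Lpl lie above it.

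The 5 genes that sense sterol did not move together. Srebf2, Srebf1 and Insig1 were lower in STO cells, while Insig2 and Scap were higher. Srebf2, which encodes the SREBP that drives mainly cholesterol synthesis, was at 104 and 111 FPKM in NSCs and at 67.1, 64.4 and 61.4 FPKM in STO cells. It was lower in all STO samples (difference -0.74 ± 0.063, SE, adjusted p = 5.01e-05). Scap, which encodes the escort of the SREBPs, was at 38.0 and 41.3 FPKM in NSCs and at 57.1, 56.4 and 55.1 FPKM in STO cells, where all samples were higher (difference 0.49 ± 0.057, SE, adjusted p = 2.27e-04). The level of Scap was thus 0.365 and 0.371 times that of Srebf2 in the NSC samples and 0.851, 0.876 and 0.897 times in the STO samples. Of the 2 Scap transcripts with a value, NM_001103162 made up 23.0% and 18.8% of the gene in NSCs and 21.6%, 40.8% and 26.3% in STO cells, where STO replicate 2 stood apart from the others.

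Insig1 and Insig2 encode related anchors of the sterol sensor, of which Insig1 is itself a classic SREBP target. Insig1 was at 71.6 and 57.1 FPKM in NSCs and at 33.4, 32.8 and 32.4 FPKM in STO cells. The NSC samples were unequal but both above every STO sample, with a difference of -0.94 ± 0.097 (SE, adjusted p = 1.33e-04). Insig2 (chr1:123200930-123229166 in mm9) was at 10.0 and 9.36 FPKM in NSCs and at 26.6, 26.2 and 25.4 FPKM in STO cells. It was 2.69-fold higher in STO cells (difference 1.34 ± 0.055, SE, adjusted p = 1.41e-06). The ratio of Insig2 to Insig1 was 0.140 and 0.164 in the NSC samples and 0.796, 0.800 and 0.784 in the STO samples, so that Insig1 was the more abundant of the pair in both cell types and by less in STO cells.

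By transcript, the values of Insig2 differed between the cell types at 1 of its start sites. Its transcripts NM_001271531, NM_001271532 and NM_001357251 were listed at 0 in every sample, though the last 2 share the start of NM_133748. The transcript NM_133748 had like values in both cell types, at 10.0 and 9.36 FPKM in NSCs and at 10.3, 9.34 and 9.69 FPKM in STO cells. The transcript NM_178082, which starts 4565 bases upstream of it, was listed at 0 in both NSC samples and at 16.3, 16.9 and 15.7 FPKM in STO cells, where it made up 61.3%, 64.4% and 61.9% of the gene. The division of a gene among its transcripts is an estimate made by Cufflinks, and an exact 0 can be a failed estimate, so these values were not tested.

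The 250 bases upstream of both Insig2 starts with a value are shown in mm9 (minus strand, 5′ to 3′) because the estimates for the 2 starts differed, and they were chosen after their values were seen. Capitals mark CCAAT boxes on either strand. The upstream window (chr1:123229167-123229416) holds 3 of them, at 136, 46 and 29 bases before the start, and the downstream window (chr1:123224602-123224851) holds none. Neither window holds the sterol element core. The share of G and C is 47.2% in the upstream window and 56.8% in the downstream window.
Insig2, NM_178082: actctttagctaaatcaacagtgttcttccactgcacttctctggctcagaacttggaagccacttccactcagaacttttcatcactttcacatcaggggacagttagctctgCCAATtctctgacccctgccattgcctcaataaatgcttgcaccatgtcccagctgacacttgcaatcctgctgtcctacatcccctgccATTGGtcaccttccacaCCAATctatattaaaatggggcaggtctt
Insig2, NM_133748: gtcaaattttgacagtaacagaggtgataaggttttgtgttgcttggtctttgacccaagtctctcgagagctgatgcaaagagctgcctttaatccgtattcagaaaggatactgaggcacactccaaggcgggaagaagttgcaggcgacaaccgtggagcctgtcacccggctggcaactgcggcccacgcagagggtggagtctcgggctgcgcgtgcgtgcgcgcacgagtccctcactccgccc

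Srebf1 (chr11:60012586-60036083 in mm9) encodes the SREBP that drives mainly fatty acid synthesis, and its forms are known to start from separate promoters. It was at 28.7 and 29.3 FPKM in NSCs and at 14.4, 12.6 and 13.3 FPKM in STO cells. Every STO sample was lower (difference -1.06 ± 0.067, SE, adjusted p = 1.20e-05). The ratio of Srebf2 to Srebf1 was 3.63 and 3.80 in NSCs and 4.65, 5.11 and 4.63 in STO cells. As divided by Cufflinks, NM_001358314 and NM_011480 of Srebf1 ran in opposite directions, and NM_001313979 and NM_001358315 were listed at 0 in every sample. The transcript NM_001358314 was at 19.0 and 19.0 FPKM in NSCs, 66.4% and 64.7% of the gene, and was listed at 0 in all STO samples. The transcript NM_011480, which starts 10156 bases upstream of it, was at 9.63 and 10.3 FPKM in NSCs and at 14.4, 12.6 and 13.3 FPKM in STO cells, where all of the gene was assigned to it. As for Insig2, this division is an estimate and the 0 can be a failed one, so the transcript values were not tested. The Srebf1 locus shares 112 bases with Rai1, which was at 14.6 and 16.4 FPKM in NSCs and at 11.5 to 12.2 FPKM in STO cells.

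The windows of 250 bases upstream of both Srebf1 starts with a value are given for the same reason and were likewise chosen after their values were seen (mm9, minus strand, 5′ to 3′). The window of the start listed at 0 in STO cells (chr11:60023974-60024223) holds 1 CCAAT box, read on the other strand, 30 bases before the start and shown in capitals. The window of the upstream start (chr11:60034130-60034379) holds none of the 3 motifs searched. The share of G and C is 70.8% in the first and 63.2% in the second.
Srebf1, NM_001358314: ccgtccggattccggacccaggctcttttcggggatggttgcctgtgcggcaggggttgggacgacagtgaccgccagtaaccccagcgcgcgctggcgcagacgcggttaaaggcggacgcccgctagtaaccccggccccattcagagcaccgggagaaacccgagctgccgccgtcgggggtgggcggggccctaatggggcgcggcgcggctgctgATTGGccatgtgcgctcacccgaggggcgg
Srebf1, NM_011480: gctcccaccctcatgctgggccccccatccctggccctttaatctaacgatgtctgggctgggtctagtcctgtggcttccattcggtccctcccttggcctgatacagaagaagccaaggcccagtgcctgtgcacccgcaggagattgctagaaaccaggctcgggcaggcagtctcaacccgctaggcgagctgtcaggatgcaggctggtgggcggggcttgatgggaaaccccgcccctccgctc

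**Figure D3:**
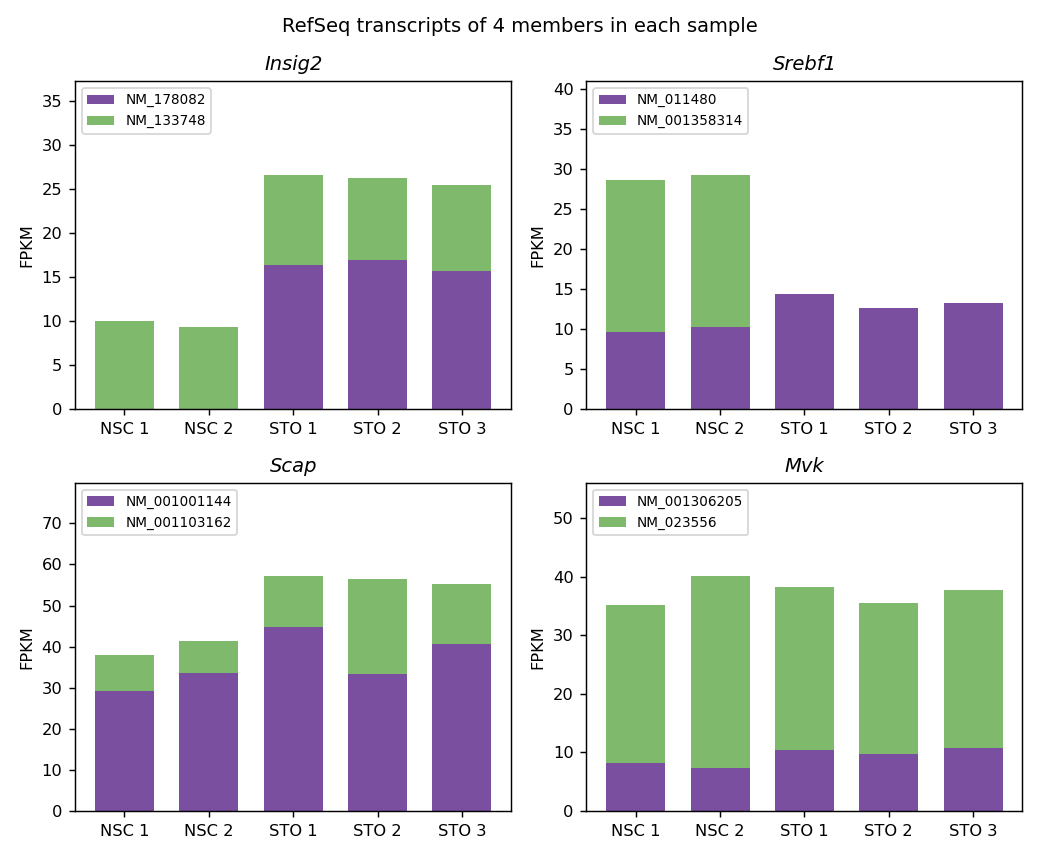
FPKM of the RefSeq transcripts of Insig2, Srebf1, Scap and Mvk in each sample as stacked bars from 0, with transcripts listed at 0 in all samples left out. NM_178082 of Insig2 appears in the 3 STO samples only, at 15.7 to 16.9 FPKM, and NM_001358314 of Srebf1 in the 2 NSC samples only, at 19.0 FPKM in each. The division among transcripts is an estimate made by Cufflinks and was not tested.

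The 5 genes of carriage, efflux and lipolysis held the widest differences in both directions. Apoe (chr7:20281593-20284537 in mm9), the lipoprotein component that carries cholesterol between neural cells, was at 322 and 346 FPKM in NSCs and at 2.70, 2.22 and 2.54 FPKM in STO cells. Its level was 134-fold higher in NSCs (difference -6.59 ± 0.076, SE, adjusted p = 7.24e-09), and it ranked 184 of the 12291 tested genes in NSCs and 9775 in STO cells. The STO values rest on 49, 44 and 83 fragments. Apoe was higher in NSCs, as were most of the astrocyte markers given above. Of these, Aldh1l1 was at 47.0 and 45.7 FPKM and Gfap at 15.9 and 16.9 FPKM in NSCs. The oligodendrocyte markers were higher there too, with Mbp at 83.4 and 88.3 FPKM. Another astrocyte marker, Gja1, was the higher in STO cells, at 24.6 to 29.0 FPKM against 10.9 and 10.1 FPKM in NSCs. The neural stem cell markers were also higher in NSCs, with Sox2 at 308 and 276 FPKM there and listed at 0 in STO cells. With only 2 groups, a shared direction does not single out a cell type. The part of any of these cells in the level of Apoe was not tested. In NSCs all of Apoe was assigned to the transcript NM_009696, while in STO cells that transcript was at 0, 0.643 and 0.506 FPKM and NM_001305819, which starts downstream, made up 56.4%, 49.8% and 80.1% of the gene, a division that rests on few fragments.

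The 250 bases upstream of the Apoe start are shown because Apoe had the largest fall among the members that hold the sterol element core (chr7:20284538-20284787 in mm9, minus strand, 5′ to 3′). Capitals mark the core, which lies 213 bases before the start. The window holds neither a CCAAT box nor the E-box.
Apoe: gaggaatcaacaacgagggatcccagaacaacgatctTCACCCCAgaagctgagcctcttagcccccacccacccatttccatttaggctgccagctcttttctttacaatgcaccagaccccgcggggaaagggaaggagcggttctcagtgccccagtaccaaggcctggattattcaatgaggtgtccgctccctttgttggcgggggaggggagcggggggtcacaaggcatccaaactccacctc

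Abca1 (chr4:53043661-53172767 in mm9), the transporter that loads cholesterol onto apolipoproteins, ran the other way. It was at 4.46 and 4.25 FPKM in NSCs and at 18.2, 19.9 and 17.96 FPKM in STO cells. Each STO sample was above both NSC samples, 4.29-fold on average (difference 1.88 ± 0.065, SE, adjusted p = 6.26e-07). Apoe was thus 72.2 and 81.2 times the level of Abca1 in the NSC samples and 0.149, 0.111 and 0.142 times in the STO samples. Abcg1, the transporter that exports cholesterol to mature lipoproteins, was at 0.672 and 0.688 FPKM in NSCs, on 122 and 138 fragments, and was listed at 0 in all 3 STO samples. It was too low in both cell types for the test, and no fold is given against values listed at 0.

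Lpl (chr8:71404454-71430831 in mm9), the lipase that frees fatty acids from circulating lipoproteins, was at 3.72 and 3.33 FPKM in NSCs and at 15.1, 15.3 and 15.5 FPKM in STO cells. All its STO samples were higher, 4.35-fold on average, with a difference of 1.85 ± 0.059 (SE, adjusted p = 4.35e-07). Lpl is also an adipocyte gene. The 5 adipocyte markers examined summed to 8.07 to 8.70 FPKM in NSCs and to 8.30 to 9.60 FPKM in STO cells, nearly all of it Cebpa, with Adipoq listed at 0 in all 5 samples. Stard4, a soluble carrier that moves sterol between membranes, was at 37.8 and 32.1 FPKM in NSCs and at 13.6, 14.2 and 14.3 FPKM in STO cells. It was lower in every STO sample (difference -1.25 ± 0.078, SE, adjusted p = 1.11e-05), in the direction of most enzymes of synthesis.

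Lists of 78 related genes were read beside the members, of which 66 were tested, 25 were higher in STO cells and 30 were lower, against the 41.9% and 43.7% of all tested genes. Of the 66, 7 reached the minimum of 1 FPKM only in the cell type where they are high, and so entered the test through that cell type alone. The counts and medians of each list are given without these 7, a choice made after the values were seen. That leaves 59 genes, of which 23 were higher and 25 lower. The list with the median nearest to that of the cholesterol enzymes was fatty acid synthesis and desaturation, whose genes are known targets of SREBP1. Of its 13 genes that reached the minimum in both cell types, 11 were lower in STO cells and 1 was higher, with a median difference of -1.08. Acss2, which makes acetyl-CoA from acetate, was at 46.8 ± 2.43 FPKM (SD, n = 2) in NSCs and 4.80 ± 0.418 FPKM (SD, n = 3) in STO cells (difference -3.05). Me1, the cytosolic malic enzyme, was at 56.4 and 14.3 FPKM on average (difference -1.91). Both lay lower in every STO sample. Fasn, the fatty acid synthase, was higher in STO cells, at 98.9 ± 5.54 against 77.4 ± 2.80 FPKM (difference 0.35). The acetyl-CoA carboxylase gene Acacb, below the minimum in NSCs, was at 0.0327 FPKM there and 1.98 FPKM in STO cells on average.

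The machinery that processes SREBPs and turns over its anchors had 6 of 8 genes higher in STO cells, none lower and 2 that did not pass, with a median difference of 0.22. Erlin1, a membrane protein that restrains SREBP activation, was at 7.60 ± 0.362 FPKM (SD, n = 2) in NSCs and 20.4 ± 0.716 FPKM (SD, n = 3) in STO cells (difference 1.31), and Vcp, an ATPase that draws proteins out of membranes for degradation, was at 133 and 220 FPKM (difference 0.72). Of the 8 genes of the liver X receptor axis at the minimum in both cell types, 4 were higher and 1 lower, with a median of 0.27. Rxra, the receptor partner, was at 4.24 ± 0.147 FPKM (SD, n = 2) in NSCs and 21.2 ± 0.210 FPKM (SD, n = 3) in STO cells (difference 2.09), and the corepressor Ncor1 was lower in STO cells (difference -0.38). Mylip, a ligase that degrades lipoprotein receptors, was below the minimum in NSCs, with means of 0.494 FPKM there and 3.77 FPKM in STO cells, and Abcg4, a transporter of neural cells, was below it in STO cells, with means of 3.87 FPKM in NSCs and 0.113 FPKM in STO cells. Rxrg was listed at 0 in STO cells and was at 0.0190 and 0.0520 FPKM in NSCs.

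Lipoprotein receptors were split, with 3 of 6 genes at the minimum in both cell types higher in STO cells, 3 lower and a median of 0.043. Lrp1, a receptor for apolipoprotein E, was at 33.8 ± 2.29 FPKM (SD, n = 2) in NSCs and 70.8 ± 5.91 FPKM (SD, n = 3) in STO cells (difference 1.04), and Lrp8, another such receptor, was higher by 0.51. Lmf1, which matures lipases such as the product of Lpl, was lower (difference -0.79). Sorl1, a sorting receptor below the minimum in STO cells, had means of 5.55 FPKM in NSCs and 0.0170 FPKM in STO cells. Cd36 was listed at 0 in STO cells and was at 0.0628 and 0.0427 FPKM in NSCs. Among genes of lysosomal release, carriage and esterification, 7 of 14 tested genes were higher, 6 lower and 1 did not pass, with a median of 0.068. Soat1, which esterifies cholesterol for storage, was at 10.1 ± 1.19 FPKM (SD, n = 2) in NSCs and 31.5 ± 1.50 FPKM (SD, n = 3) in STO cells (difference 1.55), and Lipa, which frees it in lysosomes, was at 10.2 and 27.6 FPKM (difference 1.35). Npc1, which passes freed cholesterol out of lysosomes, was at 24.7 and 8.25 FPKM (difference -1.48), and Lcat, a secreted esterifying enzyme, was at 18.9 and 1.12 FPKM (difference -3.23).

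The other branches of isoprenoid and oxysterol metabolism had 2 of 10 genes at the minimum in both cell types higher in STO cells and 4 lower, with a median of -0.069. Cyp39a1, an oxysterol hydroxylase, was at 1.22 and 4.25 FPKM (difference 1.24), and Nus1, of dolichol synthesis, was higher by 0.60. Pdss1, which makes the tail of ubiquinone, was at 7.94 and 8.86 FPKM in NSCs and was listed at 0 in all 3 STO samples, which can be a failed estimate. Cyp27a1 was listed at 0 in STO cells and was at 0.164 and 0.0600 FPKM in NSCs. Idi2 was listed at 0 in NSCs and in all but 1 STO sample.

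**Figure D4:**
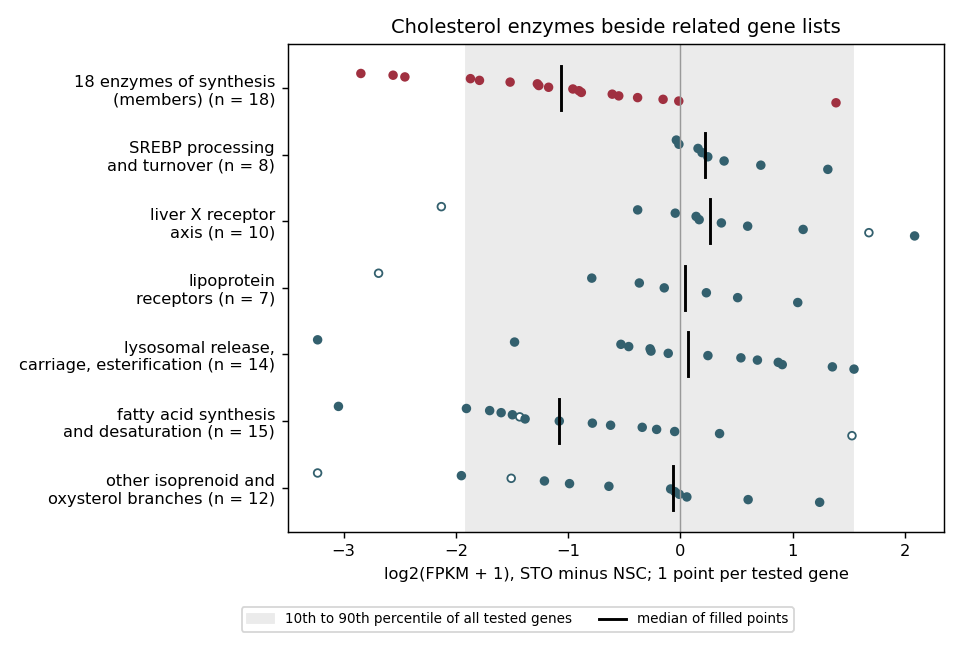
Difference between STO cells and NSCs on the log2(FPKM + 1) scale, with 1 point per tested gene, for the 18 enzymes of cholesterol synthesis and the 6 related lists; open points are genes under 1 FPKM in 1 cell type, black bars mark the medians of the filled points and the grey band is the 10th to 90th percentile of all tested genes. The medians of the cholesterol enzymes (-1.07) and of fatty acid synthesis (-1.08) lie farthest below 0, and that of the liver X receptor axis is 0.27.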

How the data were processed

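RNA-seq of 2 NSC and 3 STO samples was analysed, with groups and replicate numbers from the labels. The authors made stranded mRNA libraries, aligned paired reads to mm9 with Hisat2 and deposited FPKM values of 40201 RefSeq transcripts per sample from Cufflinks, with bounds of their confidence intervals (HISAT2 4.8.2 and Cufflinks 2.2.1 in the submitters' processing notes). Whether counting used strand is not given in the sources used here, so genes that overlap a neighbour are uncertain. Symbols came from RefSeq identifiers (39951 matched), and transcripts of a symbol were summed. Fragments were implied by reading the distance to the upper bound as 2 SD of a Poisson count. They cover counting error only. Cell types were compared by limma (version 3.58.1, R 4.3.3), with lmFit and eBayes under a mean-variance trend, on log2(FPKM + 1) for 12291 genes with a mean of at least 1 FPKM in either cell type, without covariates, with Benjamini-Hochberg adjustment over all of them and a threshold of 0.05, after being tested on simulated data. The labels name no batch. All members are named, and of each related list the 2 highest and 2 lowest differences among tested genes that passed, and genes listed at 0 in every sample of 1 cell type; a gene that this rule names is not reported here. Members and lists were chosen with earlier results of these data known. Alternatives changed the pseudocount, minimum, scaling, variance trend, call rule, summing, replicate block and samples included. Promoter motifs were searched in RefSeq promoters of GRCm38.p6, and the printed bases were read from the mm9 genome, where each matched its RefSeq promoter. Figures and tables used Python 3.11.15, numpy 2.4.6, pandas 2.3.3 and matplotlib 3.10.9. Hi-C, ChIP-seq and the other cell types of the study were not analysed here.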

Additional observations from a re-analysis of the deposited data

How the results depend on the processing

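The count of members higher in STO cells was 5 and that of members lower was 20 under a pseudocount of 0.1, quantile normalization, a fit without the variance trend, all transcripts of a symbol summed, the replicate block and each fit that left out 1 sample. With no minimum, or with FPKM rescaled to a sum of 1000000 per sample, 21 were lower, since Abcg1 then entered the test. Rescaling moved the median difference of all tested genes from -0.023 to 0.12 and gave 6175 genes higher and 5083 lower, against 5153 and 5375 as deposited, and 30 genes of the related lists higher and 26 lower, against 25 and 30. Requiring a difference of at least 1 left 12 members lower, 2103 of all tested genes higher and 2617 lower, and 9 genes of the related lists higher and 16 lower, as the rule itself is stricter. Under that rule Acat2, Idi1, Fdft1, Sqle, Cyp51, Sc5d, Insig1, Srebf2 and Scap were no longer called. The difference of Mvk, near 0, changed sign with rescaling (0.16), quantile normalization (0.012) and, on leaving out 1 sample, in a range from -0.11 to 0.077, at 0.077 without NSC replicate 2 and 0.017 without STO replicate 2, and that of Hsd17b7 with rescaling (0.0064), which also brought Sc5d to -0.22. The cause was not tested. Leaving out 1 sample gave 4704 to 5065 of all tested genes higher and 4900 to 5253 lower, and 22 to 26 and 29 of the related lists. Without an NSC sample the lone NSC library was assumed to vary like the STO libraries. With the replicate block 4994 of all tested genes were higher and 5251 lower, and 23 and 29 of the related lists. The replicate numbers were not shown to pair the samples (correlations of deviations 0.0073 and 0.062 for equal numbers, -0.062 to 0.051 for others). Depth limits the lowest members, Abcg1 and, in STO cells, Apoe.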
